A study of Mus musculus with 6 samples.

Results

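Axon guidance genes were examined in mouse germinal vesicle (GV) oocytes, the fully grown oocytes of the ovary before meiosis resumes. The set holds the ligands and receptors of 4 signalling systems. It comprises 14 Eph receptors and 8 ephrins, 20 semaphorins with 9 plexins and 2 neuropilins, 3 Slits with 4 Robos, and 4 netrins with 4 Unc5 receptors. Members were chosen by symbol among the protein-coding genes of the count table, and 68 of its 24421 genes qualified. No measured value entered that rule, but the set was chosen with earlier results of these data known.

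Libraries of the genotype named DKO came from females that were Ring1 -/-, Rnf2 f/f and carried Zp3-cre. The genotype named SKO was Ring1 -/- and Rnf2 f/f with no Cre. Both genotypes therefore lacked Ring1 and carried the floxed Rnf2 allele, on a mixed background of FVB, 129/Sv and C57BL/6J, in females about 3 months old. Each genotype had 3 libraries, and each library pooled 15 GV oocytes of 1 mouse after the surrounding granulosa cells had been pipetted off. Zp3-cre is driven by the promoter of an egg coat gene that is active in growing oocytes. It was present in DKO only, so the transgene and the deletion cannot be told apart.

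Ring1 and Rnf2 (also called RING1B) are the alternative catalytic subunits of Polycomb repressive complex 1 (PRC1), which ubiquitylates histone H2A and helps to keep developmental genes silent, often at promoters rich in CG dinucleotides. The comparison addresses which genes depend on Rnf2 in growing oocytes that already lack Ring1. Axon guidance ligands are secreted or membrane-bound cues that attract or repel growing axons through receptors on the axon tip. Outside the nervous system the same proteins act in blood vessel growth, tissue boundaries and cell migration, and Slits and Robos have also been described in the ovary.

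Counts per library ranged from 15521975 to 26652745, and levels are given as CPM, the counts of a gene relative to the scaled size of its library. Rnf2 (chr1:151469398-151500991, GRCm38) had 56.3, 30.7 and 22.9 CPM in the DKO libraries against 203, 179.6 and 187 CPM in the SKO libraries. Its log2 fold change, DKO over SKO, was -2.38 (SE 0.30, adjusted p = 0.000349 by edgeR's quasi-likelihood test with Benjamini-Hochberg adjustment). Ring1 (chr17:34020792-34024680) held 1 to 13 counts in each of the 6 libraries and was not tested. Log2 CPM correlated at 0.942 to 0.962 among DKO libraries, 0.973 to 0.977 among SKO libraries and 0.865 to 0.898 between the genotypes. Markers of other cells were checked in the same libraries, at an adjusted p under 0.05. Of the whole table, 10.5% of genes were higher in DKO and 4.5% lower, and of the genes tested 17.3% and 7.41%. Of 12 oocyte markers, 7 were lower in DKO and 0 higher, with summed levels of 12600 to 16200 CPM in DKO and 21600 to 22800 in SKO. Of 16 granulosa and cumulus markers, 7 were higher and 1 lower, with sums of 278 to 304 CPM in DKO and 115 to 140 in SKO, and none was at 0 in all libraries. The largest gains in CPM, DKO against SKO, were in Ptgs2 (87.1 ± 8.92 against 3.79 ± 0.496) and Nr5a2 (117 ± 15.5 against 79.1 ± 9.97). Fshr came next (30.7 ± 2.54 against 0.506 ± 0.0397 CPM). Cyp19a1 was the marker called lower, and Amh, Fst, Hsd17b1, Inha and Kitl were tested and not called. The rise in these sums was thus not shared by all markers of the list. Theca, stroma and endothelium markers had 6 of 16 higher and 1 lower, with sums of 156 to 171 CPM in DKO and 132 to 176 in SKO. The lower one, Pecam1 (60.9 ± 7.75 against 109 ± 17.2 CPM), was the most abundant of that list, and without it the sums were 101 to 103 CPM in DKO and 42.0 to 54.8 in SKO. Blood markers had 1 of 10 higher, with sums of 5.12 to 9.73 against 2.3 to 4.75 CPM, and the haemoglobin genes Hba-a1 and Hbb-bs were at 0 in every library. The part of these other cells in the results below was not tested. Each library pooled 15 oocytes, but the number of other cells is not given. For the markers of those cells, a different number of cells and a different amount of RNA per cell cannot be told apart.

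Members of all 4 systems rose in DKO, and few fell. Of the 68 members, 62 had enough counts to be tested. At an adjusted p under 0.05, 24 were higher in DKO, which is 35.3% of the 68 against 10.5% of the whole table, and 38.7% of the tested members against 17.3% of the 14845 genes tested. Another 4 were lower, which is 5.88% of the 68 against 4.5% of the whole table, and 6.45% of the tested members against 7.41% of the genes tested. The share of falls was thus near the background on either base. The remaining 34 tested members did not pass. Receptors accounted for 14 of the rises (of 33 receptors) and ligands for 10 (of 35). Among the falls, 3 were receptors and 1 was a ligand. With SKO replicate 1, 2 or 3 left out, the count of members called lower was 1 each time, and that of all genes called lower ranged from 434 to 516 (1100 with all libraries). With libraries scaled to their totals alone, which moves the median log2 fold change of all genes from 0.04 to 0.20, 27 members were higher and 2 lower, against 2896 and 596 of all genes.

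The rises came mostly from genes that were low in SKO. The 24 members called higher had a median level of 2.37 CPM in SKO and 17.3 CPM in DKO, and 17 of them rose more than 4-fold. Their summed level was 388, 432 and 430.2 CPM in the SKO libraries and 1103, 1108 and 1376 CPM in the DKO libraries. For 23 of the 24, every DKO library lay above every SKO library, and for all 4 members called lower every DKO library lay below. The called members were picked in these same libraries. Their folds, sums and separation follow largely from that choice and are no separate evidence. Of all 62 tested members, 29 lay fully above and 7 fully below. Of all 14845 tested genes, 3671 lay fully above (24.7%) and 2911 fully below (19.6%). The 34 members not called had a median level of 14.4 CPM in SKO and 18.7 CPM in DKO.

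Because a gene that is silent in SKO can enter the test only by rising, the counts were also read with the filter applied to the SKO libraries alone. Then 53 members were tested, of which 22 were called higher and 1 lower, against 13.3% and 6.02% of 12731 genes. Ephb3, Epha2, Ntn4, Plxna3 and Sema7a were called higher in the full comparison but did not pass this filter. The members were also split at a mean of 10 CPM over the 6 libraries, a value chosen after the data were seen. Above it, 12 of 37 members were called higher (32.4%), against 12.3% of all genes at such levels, and 3 were called lower (8.11% against 11.1%). Below it, 12 of 25 were called higher (48.0%), against 23.8% of all genes, and 1 was called lower (4.0% against 2.57%). This mean includes the DKO libraries, so a member low in SKO could be placed above it by its own rise. The split therefore does not remove that selection. At least 10 CPM in SKO was reached by 5 of the 24 members called higher. The same held for 3 of the 4 called lower and 22 of the 34 not called.

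**Figure D1:**
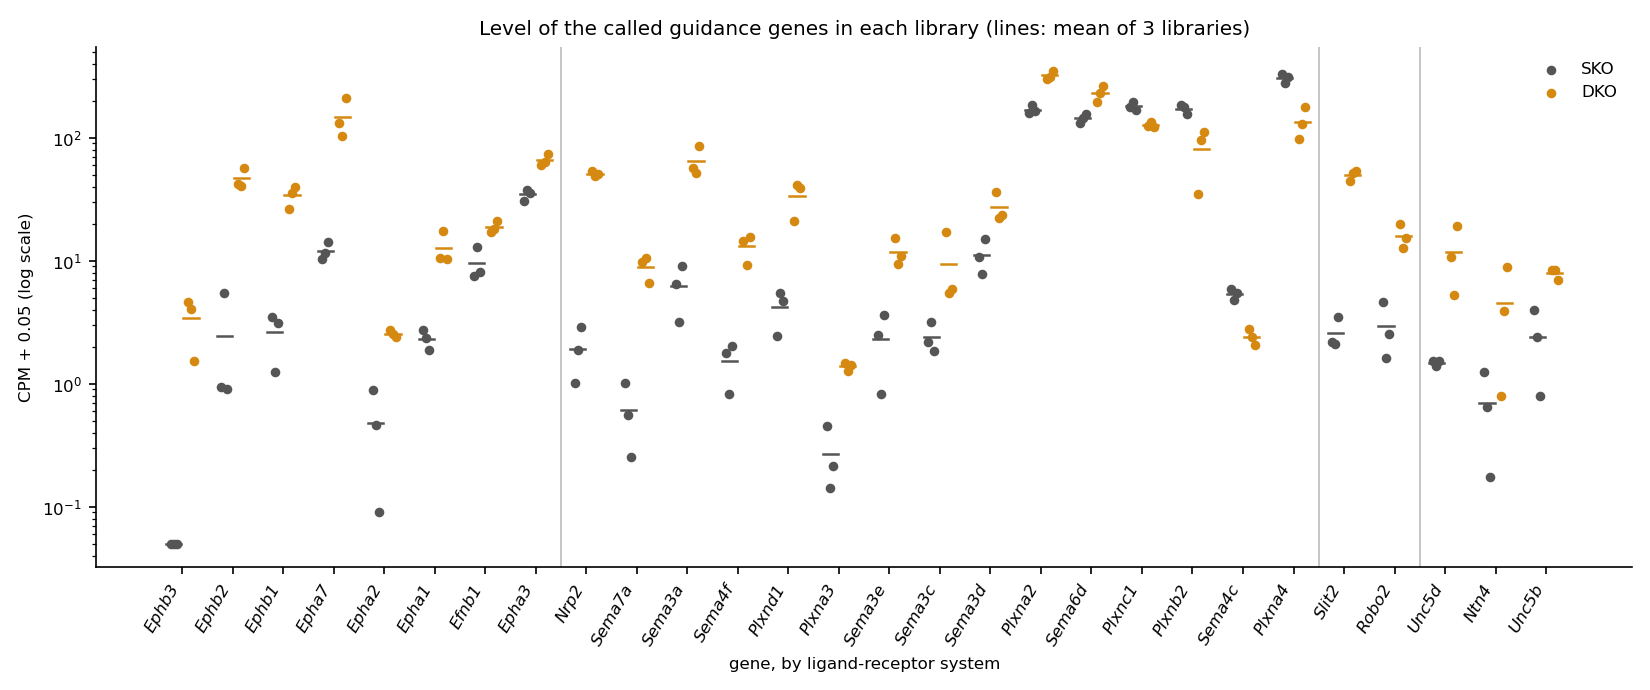
Level of the called members in each of the 6 libraries, in CPM plus 0.05 on a log axis, with SKO in grey, DKO in orange and lines at the mean of 3 libraries. All 3 DKO libraries lay above all 3 SKO libraries for 23 of the 24 members called higher (Ntn4 is the exception), and below them for the 4 members called lower.

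**Figure D2:**
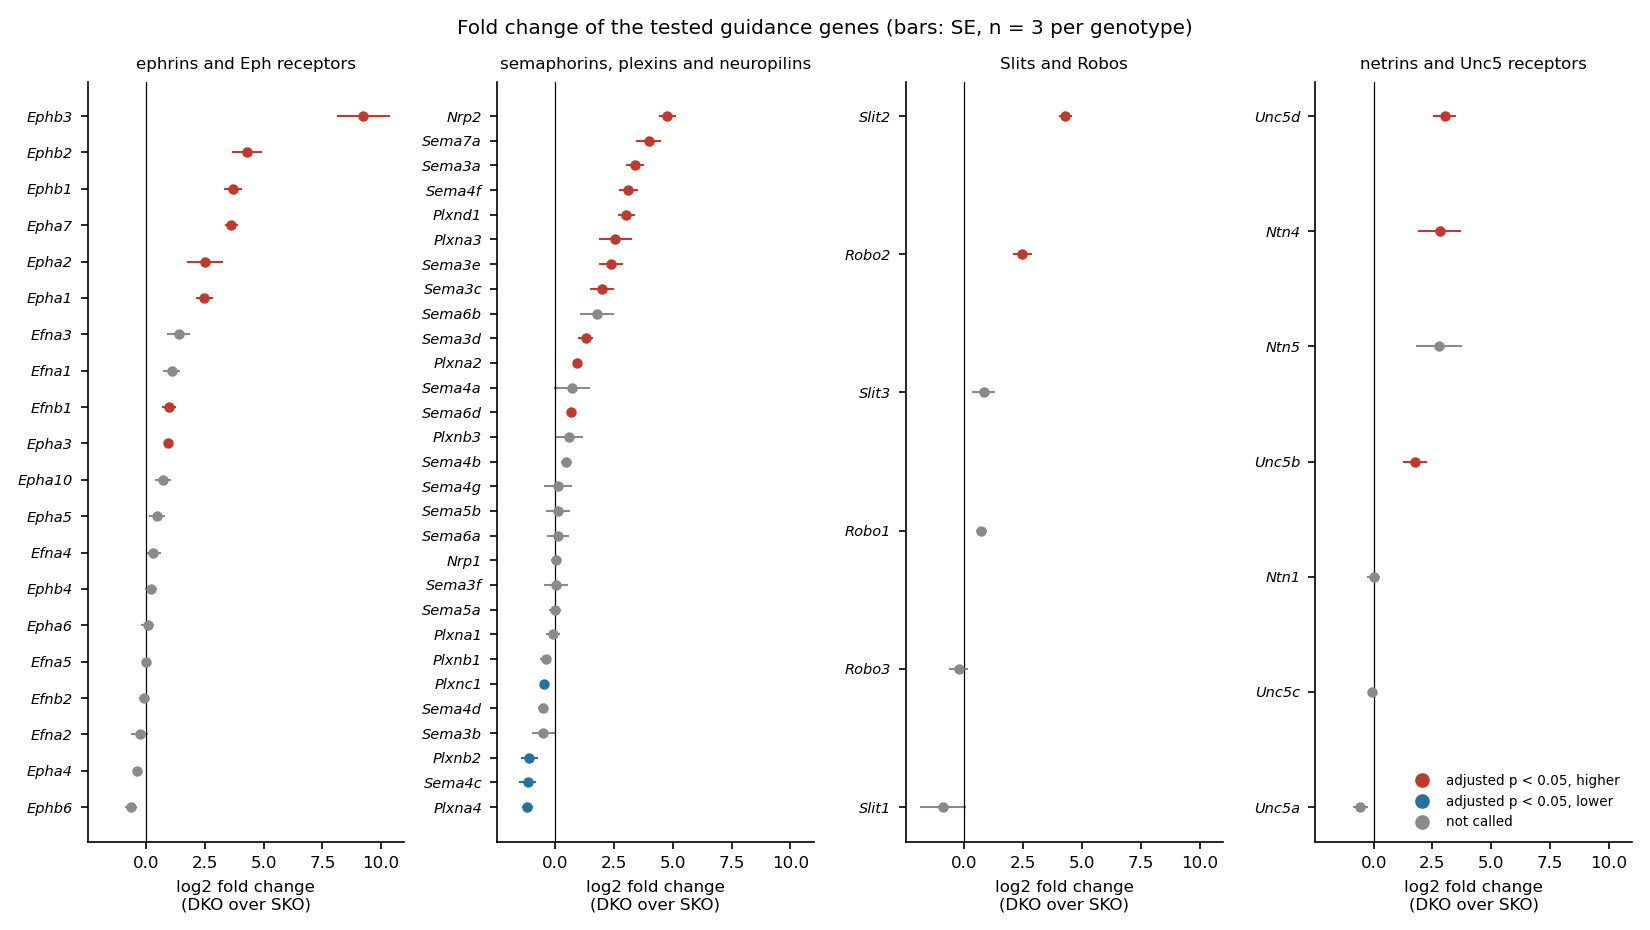
Log2 fold change, DKO over SKO, of each tested member by family, with bars of 1 standard error (n = 3 per genotype, and the plotted fold of Ephb3 depends on the prior count since SKO had 0 counts). Rises were found in every one of the 4 systems, and the falls were 3 plexins and 1 semaphorin.

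Promoters of the leading members are shown because many PRC1 targets have promoters rich in CG. RefSeq promoter windows were found for 59 of the 68 members, and CG dinucleotides were counted in the 250 bases before each start. Members called higher had a median of 16 (23 genes, range 2 to 39), members called lower 20 (3 genes) and members not called 18 (28 genes). The median over all 18281 genes with a window was 10, over all genes called higher 14, and over tested genes not called 15. At least 10 CG dinucleotides were present in 15 of 23 members called higher (65.2%) and in 23 of 28 not called (82.1%), against 50.4% of all windows. The share was 65.3% over all genes called higher and 69.7% over all genes tested and not called. CG content in this window was thus no higher in the members that rose than in those that did not pass.

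The following stretches are upstream of the transcript start of the leading member of each system that had a window, with bases inside any annotated exon left out. Sema4f was added after its window was seen, as a low-CG example. They are written 5′ to 3′ on the gene's strand (RefSeq, GRCm38.p6), with each CG in capitals. Slit2 is at chr5:47982905-47983137 on the plus strand, Epha7 at chr4:28812881-28813065 (plus), Nrp2 at chr1:62703067-62703284 (plus), Unc5b at chr10:60831582-60831831 (minus) and Sema4f at chr6:82939770-82940019 (minus).
Slit2: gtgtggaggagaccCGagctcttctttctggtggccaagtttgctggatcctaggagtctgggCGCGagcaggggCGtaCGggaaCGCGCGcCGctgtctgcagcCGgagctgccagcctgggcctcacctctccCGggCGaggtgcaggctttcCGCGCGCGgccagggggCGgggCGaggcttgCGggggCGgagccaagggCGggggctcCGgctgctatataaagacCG
Epha7: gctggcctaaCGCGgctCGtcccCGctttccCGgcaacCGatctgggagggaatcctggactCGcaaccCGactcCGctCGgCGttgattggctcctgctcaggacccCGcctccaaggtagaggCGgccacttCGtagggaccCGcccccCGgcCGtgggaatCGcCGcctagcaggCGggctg
Nrp2: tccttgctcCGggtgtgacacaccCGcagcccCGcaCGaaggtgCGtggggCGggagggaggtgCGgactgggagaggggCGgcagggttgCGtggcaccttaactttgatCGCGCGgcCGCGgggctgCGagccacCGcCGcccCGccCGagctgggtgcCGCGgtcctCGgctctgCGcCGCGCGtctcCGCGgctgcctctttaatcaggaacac
Unc5b: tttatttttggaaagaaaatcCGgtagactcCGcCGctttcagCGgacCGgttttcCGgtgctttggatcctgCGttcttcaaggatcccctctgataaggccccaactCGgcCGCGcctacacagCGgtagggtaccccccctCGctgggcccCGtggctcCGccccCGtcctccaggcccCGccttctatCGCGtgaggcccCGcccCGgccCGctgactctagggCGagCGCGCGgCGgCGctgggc
Sema4f: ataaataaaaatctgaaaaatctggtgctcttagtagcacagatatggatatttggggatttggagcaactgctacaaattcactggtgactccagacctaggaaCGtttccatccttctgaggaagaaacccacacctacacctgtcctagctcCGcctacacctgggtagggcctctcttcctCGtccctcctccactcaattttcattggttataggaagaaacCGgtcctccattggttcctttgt

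In the full 250 bases, the Nrp2 window held 32 CG dinucleotides, a number that 5.6% of all windows reach. The Unc5b window held 27 (10.5% of windows), and those of Slit2 and Epha7 held 25 each (13.3%). The Sema4f window held 4, a number that 71.2% of windows reach. Both kinds of window thus belonged to genes that rose.

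Eph receptors are receptor tyrosine kinases activated by ephrins on neighbouring cells, and signals run into both cells. Class A ephrins are held by a lipid anchor and class B ephrins span the membrane. In DKO, 7 of the 14 Eph receptors were higher and 0 lower, 4 of 9 in class A and 3 of 5 in class B. Among the 8 ephrins, only Efnb1 was called.

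Epha7 (chr4:28813066-28967503), whose upstream stretch is printed above, had 132, 103 and 210.3 CPM in DKO and 10.2, 11.5 and 14.2 CPM in SKO. The highest SKO library was thus well below the lowest DKO library. Its log2 fold change was 3.63 (SE 0.29, edgeR adjusted p = 1.96e-05). Ephb1 (chr9:101922128-102354693) had 26.6, 35.5 and 39.7 CPM in DKO and 3.46, 1.2 and 3.08 CPM in SKO. The groups did not overlap, and the log2 fold change was 3.71 (SE 0.39, edgeR adjusted p = 0.000117).

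Ephb2 (chr4:136647536-136836326), like Ephb1 a receptor of class B ephrins, had 42.5, 40.7 and 56.8 CPM in DKO and 0.885, 5.43 and 0.862 CPM in SKO. SKO replicate 2 was the high one of its group but still lay below every DKO library. The log2 fold change was 4.30 (SE 0.64, edgeR adjusted p = 0.000966), and 5.72 without SKO replicate 2. Ephb3 (chr16:21204620-21223309), also of class B, held 80, 86 and 38 counts in DKO, or 4.55, 4.04 and 1.47 CPM, and 0 counts in every SKO library. Against a floor of 3 counts over the SKO group its level was at least 74.6-fold higher in DKO (edgeR adjusted p = 0.000738).

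Class A receptors other than Epha7 rose by smaller folds. Epha3 (chr16:63543532-63864175) had 60.04, 64.1 and 73.8 CPM in DKO and 30.6, 37.8 and 35.5 CPM in SKO. The groups were separate, with a log2 fold change of 0.93 (SE 0.19, edgeR adjusted p = 0.00501). Epha1 (chr6:42358487-42373314) had 10.6, 17.3 and 10.2 CPM in DKO and 2.69, 2.30 and 1.85 CPM in SKO, a log2 fold change of 2.48 (SE 0.35, edgeR adjusted p = 0.000747). Its value is uncertain because it overlaps Zyx in the annotation. Zyx gained 25.5 CPM where Epha1 gained 10.4, and reads of the overlap may have been counted for either.

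Epha2 and Efnb1 gave the least stable calls of this system. Epha2 (chr4:141301221-141329384) had 2.67, 2.49 and 2.33 CPM in DKO and 0.845, 0.414 and 0.0411 CPM in SKO. These levels did not overlap, with a log2 fold change of 2.51 (SE 0.77, edgeR adjusted p = 0.0376). The call of Epha2 was lost without DKO replicate 1, 2 or 3 (adjusted p = 0.0919, 0.0839 and 0.055) and without SKO replicate 2 or 3 (0.102 and 0.0597), and the log2 fold change was 3.43 without SKO replicate 1. Efnb1 (chrX:99136061-99149022), a transmembrane ephrin, had 17.1, 17.9 and 20.9 CPM in DKO and 7.48, 12.98 and 8.09 CPM in SKO. The DKO libraries were again all higher, with a log2 fold change of 0.97 (SE 0.29, edgeR adjusted p = 0.0318). Its call was lost without DKO replicate 2 or 3 (adjusted p = 0.0556 and 0.062) and without SKO replicate 1 or 3 (0.126 and 0.122).

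Efnb2, a transmembrane ephrin used by EphB receptors and by Epha4, was the most abundant member of the system per length in SKO. It had 129.7, 173 and 215 CPM in DKO and 163, 189 and 206 CPM in SKO. The ranges overlapped, and the log2 fold change was -0.11 (SE 0.20, edgeR adjusted p = 0.743). Efna5 was at 79.8 ± 3.66 CPM in DKO libraries and 79.0 ± 0.41 in SKO libraries (SD, n = 3; edgeR adjusted p = 0.963). Efna1 and Efna3 had log2 fold changes of 1.09 and 1.40 and narrowly missed the threshold (edgeR adjusted p = 0.0556 and 0.0615), and they were called higher in 9 and 6 of the 15 alternatives. Both lie with Efna4, also not called, within chr3:89271730-89338028, a span of 0.0663 Mb with no other gene of the table between them. Epha4 and the kinase-inactive Ephb6 were lower in every DKO library than in any SKO library but did not pass (log2 fold changes of -0.40 and -0.63, edgeR adjusted p = 0.0783 and 0.0964). Epha10, another receptor without kinase activity, did not pass either (log2 fold change 0.72, edgeR adjusted p = 0.143). Epha5, Epha6, Ephb4, Efna2 and Efna4 were not called. Epha8 held 4 counts in each group and was not tested. Efnb3 held 0, 1 and 2 counts in DKO against 0, 9 and 0 in SKO, so that SKO replicate 2 held all SKO counts, and it was not tested.

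Semaphorins are mostly repellent cues. Class 3 semaphorins are secreted and most of them need a neuropilin as co-receptor, while classes 4 to 6 are transmembrane and Sema7a is lipid-anchored. Plexins are the receptors that carry the signal into the cell. In DKO, 7 of the 20 semaphorins rose and 1 fell, 3 of the 9 plexins rose and 3 fell, and 1 of the 2 neuropilins rose. All 4 members called lower belonged to this system.

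Nrp2 (chr1:62703317-62818692), the neuropilin used by Sema3c and Sema3f, had 54.1, 48.5 and 50.9 CPM in DKO and 0.965, 1.84 and 2.83 CPM in SKO. Its DKO libraries were close together and far above SKO. The log2 fold change was 4.76 (SE 0.37, edgeR adjusted p = 1.53e-05), the largest among members with counts in both groups. Nrp1, the neuropilin of Sema3a, was at 58.9 ± 7.66 CPM in DKO libraries and 57.9 ± 8.70 in SKO libraries (SD, n = 3). Its log2 fold change was 0.03 (edgeR adjusted p = 0.94).

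Of the 7 class 3 semaphorins, 4 were called higher (57.1%, against 10.5% of the whole table): Sema3a, Sema3c, Sema3d and Sema3e. Sema3a (chr5:13124822-13603485), which repels axons through Nrp1 and class A plexins, had 56.7, 51.4 and 86.2 CPM in DKO and 6.44, 3.13 and 8.99 CPM in SKO. The groups were widely separate, with a log2 fold change of 3.38 (SE 0.38, edgeR adjusted p = 0.000174). Sema3e (chr5:14025276-14256689), which binds Plxnd1 without a neuropilin, had 15.3, 9.29 and 10.8 CPM in DKO and 2.45, 0.782 and 3.57 CPM in SKO. It also showed no overlap, with a log2 fold change of 2.37 (SE 0.50, edgeR adjusted p = 0.0066).

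Sema3d (chr5:12383161-12588953) was at 27.3 ± 7.51 CPM in DKO libraries and 11.1 ± 3.65 in SKO libraries (SD, n = 3), a log2 fold change of 1.29 (SE 0.31, edgeR adjusted p = 0.0125). Sema3c (chr5:17574816-17730268) was at 9.44 ± 6.61 against 2.36 ± 0.69 CPM, a log2 fold change of 2.0 (SE 0.50, edgeR adjusted p = 0.0159). DKO replicate 1, at 17.1 CPM, stood above replicates 2 and 3, at 5.40 and 5.86 CPM. Without it the log2 fold change was 1.25 and the call was lost (edgeR adjusted p = 0.0609), as it was without SKO replicate 1 or 3 (0.0555 and 0.0618). The call of Sema3d was lost without SKO replicate 2 (0.055). The 4 called class 3 genes lie on chr5 between 12383161 and 17730268, a span of 5.35 Mb with 17 other genes of the table, of which 3 were tested and 0 called. Of the others of this class, Sema3b and Sema3f were not called and Sema3g had 0 counts in all 6 libraries.

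Plxnd1 (chr6:115954811-115995339), the receptor of Sema3e, had 20.9, 41.4 and 39.3 CPM in DKO and 2.41, 5.39 and 4.68 CPM in SKO. Every DKO library lay above SKO, with a log2 fold change of 3.03 (SE 0.38, edgeR adjusted p = 0.000339). Ligand and receptor of this pair were thus both called higher.

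Of the 13 membrane-bound semaphorins, 3 were called higher and 1 lower, where 10.5% and 4.5% of the whole table were. Counts this small do not set the group apart from the table. Sema4f (chr6:82911884-82939769), the gene with few CG in its window, had 14.5, 9.15 and 15.5 CPM in DKO and 1.73, 0.782 and 1.97 CPM in SKO. The groups did not overlap, with a log2 fold change of 3.11 (SE 0.42, edgeR adjusted p = 0.000558). Sema7a (chr9:57939596-57962865), a ligand of Plxnc1 and of integrins, had 9.68, 10.4 and 6.52 CPM in DKO and 0.965, 0.506 and 0.205 CPM in SKO. It was near the floor in SKO and clearly above it in DKO, with a log2 fold change of 3.97 (SE 0.54, edgeR adjusted p = 0.000595), and 4.61 without SKO replicate 1. Sema6d (chr2:124089943-124667789), a ligand of Plxna1, was already abundant in SKO. It was at 229.95 ± 34.0 CPM in DKO libraries and 144 ± 11.4 in SKO libraries (SD, n = 3), a log2 fold change of 0.68 (SE 0.17, edgeR adjusted p = 0.0157). This call was lost without SKO replicate 1, 2 or 3 (adjusted p = 0.0947, 0.0754 and 0.0523) and with the trend with gene length removed (0.051).

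Class A plexins, the receptors shared with neuropilins, moved in both directions. Plxna2 (chr1:194619791-194816869) had 301, 313 and 352 CPM in DKO and 158, 184 and 164 CPM in SKO. The rise was of similar size in each DKO library, with a log2 fold change of 0.93 (SE 0.16, edgeR adjusted p = 0.00193). Plxna4 (chr6:32144543-32588192) had 97.1, 129 and 179.5 CPM in DKO and 329, 280.3 and 313 CPM in SKO. All DKO libraries were lower, and the log2 fold change was -1.19 (SE 0.22, edgeR adjusted p = 0.00349). This was the one fall that kept its call in all 15 alternatives run, with an adjusted p of at most 0.018.

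Plxna3 (chrX:74328290-74344689) was at 1.33 ± 0.103 CPM in DKO libraries and 0.22 ± 0.162 in SKO libraries (SD, n = 3), with the SKO level near the floor. Its log2 fold change was 2.56 (SE 0.69, edgeR adjusted p = 0.0223). Its call was lost without DKO replicate 1 or 2 (adjusted p = 0.0637 and 0.0508) and without SKO replicate 2 or 3 (0.103 and 0.0951), and its log2 fold change was 3.29 without SKO replicate 1. Plxna1 was the most abundant member of the system per length in SKO, with 188, 230.01 and 398 CPM in DKO and 344, 325 and 198 CPM in SKO. Its groups overlapped fully, with a log2 fold change of -0.09 (SE 0.29, edgeR adjusted p = 0.854).

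The other falls were smaller or less stable. Plxnb2 (chr15:89155546-89182018), a receptor of Sema4c, had 34.7, 96.1 and 112 CPM in DKO and 185, 177 and 157 CPM in SKO. DKO replicate 1 was the lowest, and the log2 fold change was -1.10 (SE 0.34, edgeR adjusted p = 0.0418). Sema4c (chr1:36548639-36560699) was at 2.37 ± 0.357 CPM in DKO libraries and 5.30 ± 0.53 in SKO libraries (SD, n = 3), a log2 fold change of -1.17 (SE 0.36, edgeR adjusted p = 0.0386). Plxnc1 (chr10:94790866-94945015), a receptor of Sema7a, was at 127 ± 6.17 against 180.0 ± 13.6 CPM, a log2 fold change of -0.50 (SE 0.15, edgeR adjusted p = 0.0379). Each of these calls was lost without any 1 of the SKO replicates, with adjusted p of 0.0764 to 0.0996 for Plxnb2, 0.0873 to 0.112 for Sema4c and 0.0854 to 0.169 for Plxnc1. Leaving out DKO replicate 2 also ended the calls of Plxnb2 (0.069) and Sema4c (0.0677), and leaving out DKO replicate 3 that of Sema4c (0.0568). With libraries scaled to their totals, Plxnc1 and Sema4c did not pass (adjusted p = 0.156 and 0.0862). With the filter on SKO alone none of the 3 passed (0.0589 for Plxnb2, 0.05005 for Sema4c and 0.086 for Plxnc1).

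Sema4d, a ligand of Plxnb1, had a log2 fold change of -0.52 with no overlap between the groups and was not called (edgeR adjusted p = 0.0956). Sema6b had a log2 fold change of 1.79 and was not called (edgeR adjusted p = 0.0961). Plxnb1, Plxnb3, Sema4a, Sema4b, Sema4g, Sema5a, Sema5b and Sema6a were not called either, and Sema6c, with 12, 2 and 1 counts in DKO and 0, 5 and 0 in SKO, was not tested.

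Slits are large secreted repellents that act through Robo receptors. Slit2 and Robo2 were called higher (28.6% of the 7 members, against 10.5% of the whole table), and 0 of the 7 members was called lower. With 4.5% of the whole table lower, 0 falls among 7 genes says little. Slit2 (chr5:47981291-48307735) had 44.6, 51.7 and 53.7 CPM in DKO and 2.13, 2.07 and 3.45 CPM in SKO. The libraries of each genotype were close together and the genotypes far apart. Its log2 fold change of 4.29 (SE 0.28) had the smallest adjusted p of all members (6.23e-06, edgeR). The printed upstream stretch of Slit2 belongs to a start that lies inside the annotated gene, downstream of its outermost RefSeq start. Robo2 (chr16:73891976-75447443) had 19.9, 12.6 and 15.4 CPM in DKO and 4.59, 1.56 and 2.5 CPM in SKO. The groups did not overlap, with a log2 fold change of 2.46 (SE 0.41, edgeR adjusted p = 0.00198).

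Robo1, the neighbour of Robo2 on the same chromosome, was the most abundant of the system per length in SKO. It had 114, 162 and 139.7 CPM in DKO and 74.5, 63.1 and 116 CPM in SKO. The highest SKO library exceeded the lowest DKO library, and the log2 fold change of 0.72 missed the threshold (SE 0.24, edgeR adjusted p = 0.0541). Robo1 was called higher in 9 of the 15 alternatives. Slit3 was at 18.5 ± 1.17 CPM in DKO libraries and 10.5 ± 6.68 in SKO libraries (SD, n = 3), with 1 low SKO library at 2.81 CPM, and was not called (edgeR adjusted p = 0.251). Slit1, at 0 to 1.17 CPM in the 6 libraries, and Robo3, a receptor that modulates Slit repulsion at the midline, were not called. Robo4, a Robo of endothelial cells, had 0 counts in all 6 libraries.

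Netrins are laminin-related cues, and Unc5 receptors turn the response to Ntn1 into repulsion, in part together with Dcc. Of the 8 members, 3 were called higher (37.5%, against 10.5% of the whole table) and 0 lower. With 4.5% of the whole table lower, 0 falls among 8 genes says little. Unc5d (chr8:28646717-29219671) had 10.6, 5.21 and 19.2 CPM in DKO and 1.49, 1.33 and 1.48 CPM in SKO. The DKO libraries spread more widely than the SKO libraries but all lay above them. Its log2 fold change was 3.02 (SE 0.48, edgeR adjusted p = 0.00148).

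Unc5b (chr10:60762594-60831581), whose upstream stretch is printed above, had 8.37, 8.40 and 6.95 CPM in DKO and 3.90, 2.35 and 0.739 CPM in SKO. The groups did not overlap, with a log2 fold change of 1.76 (SE 0.52, edgeR adjusted p = 0.0329). Its call was lost without DKO replicate 1 or 2 (adjusted p = 0.0787 and 0.079) and without SKO replicate 2 or 3 (0.0864 and 0.0589). Ntn4 (chr10:93641049-93745972), a netrin of basement membranes, had 0.74, 3.85 and 8.92 CPM in DKO and 1.21, 0.598 and 0.123 CPM in SKO. DKO replicate 1 lay below SKO replicate 1, so the groups overlapped, and the log2 fold change was 2.80 (SE 0.91, edgeR adjusted p = 0.0466). The call of Ntn4 was lost without DKO replicate 2 or 3 (adjusted p = 0.0867 and 0.172) and without SKO replicate 2 or 3 (0.113 and 0.119). Its log2 fold change was 1.83 without DKO replicate 3 and 3.64 without SKO replicate 1. It also overlaps the gene Gm15915, which gained 6.49 CPM where Ntn4 gained 3.86, and is uncertain for that reason.

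Unc5c was the most abundant of the system per length in SKO, with 356, 403 and 502 CPM in DKO and 430.5, 429.6 and 448 CPM in SKO. DKO libraries lay on both sides of SKO, and the log2 fold change was -0.05 (SE 0.17, edgeR adjusted p = 0.849). Ntn1, the main secreted ligand of these receptors, was at 19.7 ± 3.79 CPM in DKO libraries and 19.7 ± 6.08 in SKO libraries (SD, n = 3; edgeR adjusted p = 0.997). Unc5a had a log2 fold change of -0.57 (edgeR adjusted p = 0.236). Ntn5 had a log2 fold change of 2.76 and was not called (edgeR adjusted p = 0.0634), and it overlaps Sec1, which gained 9.56 CPM where Ntn5 gained 1.11. Ntn3 held 16, 3 and 4 counts in DKO against 1, 0 and 1 in SKO and was not tested. Most of its DKO counts came from replicate 1.

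Levels per length put the changes in the order of abundance. In SKO the highest members were Efnb2 (43.0 ± 5.01 CPM per kb, SD, n = 3), Unc5c (36.5 ± 0.861), Plxna1 (32.0 ± 8.80), Unc5a (26.3 ± 1.77), Plxnc1 (25.6 ± 1.93), Plxnb2 (25.5 ± 2.08) and Plxna4 (24.4 ± 1.98). Apart from Efnb2 and Unc5c, neighbours in this order differed by less than the larger of their SDs. In DKO the order began with Efnb2 (40.0 ± 9.92), Unc5c (35.2 ± 6.25), Plxna1 (30.1 ± 12.3) and Plxna2 (28.7 ± 2.39), whose differences between neighbours were again smaller than the larger SD. Among the 62 tested members, Epha7 moved from rank 33 in SKO to rank 10 in DKO, Nrp2 from 50 to 26 and Slit2 from 53 to 33. Plxna4 moved from rank 7 to 18 and Plxnb2 from 6 to 15. Of the 7 leading members in SKO, 4 were not called and 3 were called lower.

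**Figure D3:**
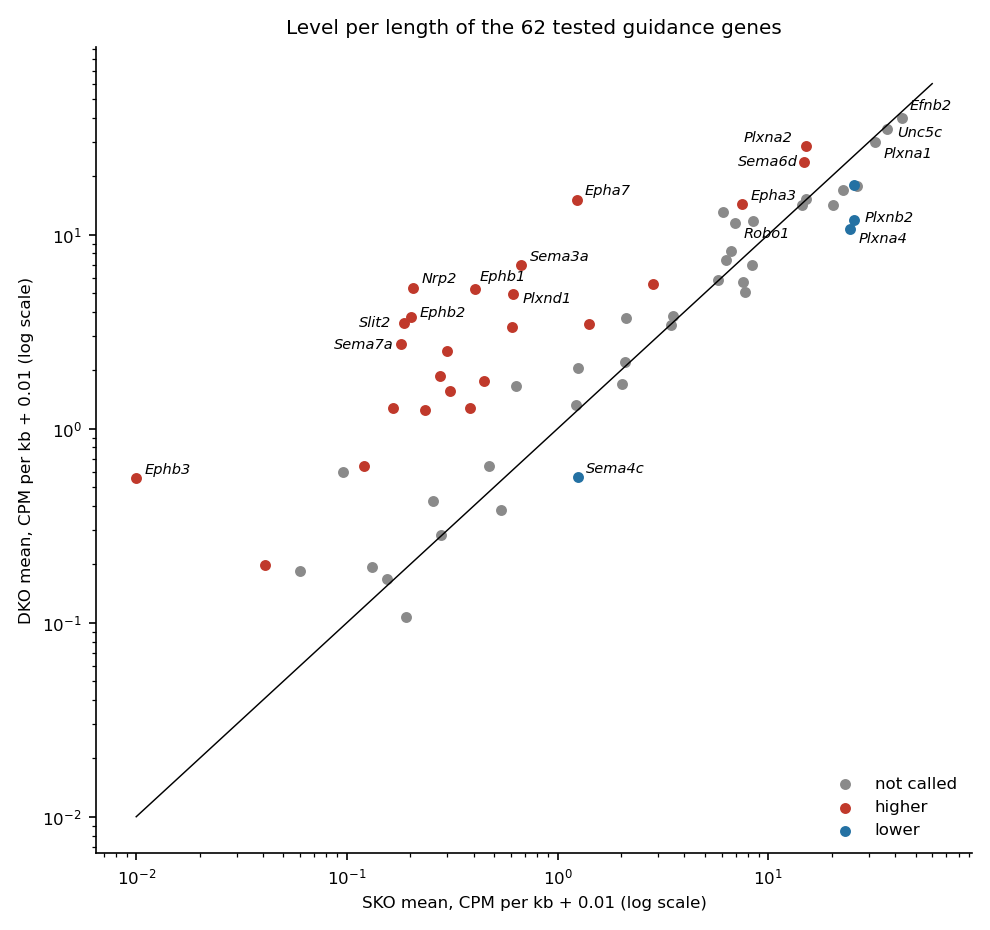
Mean level per length of the 62 tested members in SKO (horizontal) and DKO (vertical), in CPM per kb plus 0.01 on log axes, with members called higher in red and lower in blue and a line of equal levels. Efnb2, Unc5c and Plxna1 sit near the diagonal at 30.1 to 43.0 CPM per kb, while Nrp2, Slit2 and Epha7 sit far above it.

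The summed level of all members was 3048, 3386 and 4176 CPM in the DKO libraries and 3140.3, 3150.2 and 3169.8 CPM in the SKO libraries. The ranges overlapped. The 4 members called lower, picked by that call in the same libraries, together had 259.98, 361 and 416 CPM in DKO. In SKO they had 699, 656 and 642 CPM.

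Other genes of axon guidance, such as co-receptors and the proteins that relay the signal to the cytoskeleton, were listed apart from the members. Of 84 such genes, 78 were tested, 23 were higher and 3 lower. That is 27.4% and 3.57% of the 84, against 10.5% and 4.5% of the whole table. Of those tested it is 29.5% and 3.85%, against 17.3% and 7.41% of all genes tested. With the filter on the SKO libraries alone, 66 were tested. Then 16 were higher and 1 lower, against 13.3% and 6.02% of 12731 genes. Of the 23 rises, 8 did not pass that filter, among them Dscaml1, Srgap3, Vangl2 and Chl1. Dcc, the netrin receptor that mediates attraction, was at 42.0 ± 7.56 CPM in DKO libraries and 4.98 ± 1.13 in SKO libraries (SD, n = 3; log2 fold change 3.07, SE 0.27, edgeR adjusted p = 3.79e-05). Flrt3, a membrane protein that binds Unc5 receptors and Robo1, was at 53.3 ± 8.74 against 5.52 ± 1.14 CPM (3.27, SE 0.26, edgeR adjusted p = 1.68e-05). Srgap3, a GTPase-activating protein of the Slit-Robo pathway, was at 29.6 ± 11.5 CPM in DKO libraries but 0.335 ± 0.232 in SKO libraries. This gave a log2 fold change of 6.47 (SE 0.52, edgeR adjusted p = 1.96e-05), and 7.14 without SKO replicate 2. Dscaml1, a cell adhesion molecule, and Chl1, an adhesion molecule of the L1 family, each had a log2 fold change of 5.89 (edgeR adjusted p = 1.52e-05 and 7.6e-05). Vangl2, a planar cell polarity protein, was at 31.7 ± 7.95 against 0.299 ± 0.282 CPM, a log2 fold change of 6.67 (SE 0.56, edgeR adjusted p = 2.73e-05), and 7.65 without SKO replicate 1.

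The 3 relay genes called lower were Farp2 (-0.73), Itsn2 (-0.65) and Farp1 (-0.66), with edgeR adjusted p of 0.0204, 0.027 and 0.0305. Farp1 and Farp2 are exchange factors linked to class A plexins, and Itsn2 is an exchange factor of endocytosis. The count of such genes called lower was 0 without SKO replicate 1, 2 or 3, 6 without DKO replicate 2 and 8 without DKO replicate 3. The remaining 17 called higher were Dpysl5, Rgma, Crmp1, Mical2, Ablim3, Nrcam, Vav2, Rras, Dpysl2, Src, Ptk7, Flrt1, Rnd1, Vav3, Vasp, Dpysl4 and Nck2. They include Crmp1, Dpysl2, Dpysl4 and Dpysl5, collapsin response mediators that act downstream of semaphorins. The most abundant gene of that family, Dpysl3, was at 171 ± 45.3 CPM in DKO libraries and 198 ± 8.66 in SKO libraries (SD, n = 3) and was not called (log2 fold change -0.21, edgeR adjusted p = 0.478). Neo1, a relative of Dcc and receptor of Rgma, was not called (log2 fold change 0.55, edgeR adjusted p = 0.0643).

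Stability was read over 15 alternative settings. Of the 24 rises, 16 kept their call in every alternative that tested them: Slit2, Robo2, Epha7, Ephb1, Ephb2, Ephb3, Epha1, Epha3, Unc5d, Nrp2, Sema3a, Sema3e, Plxnd1, Plxna2, Sema4f and Sema7a. Of the 4 falls only Plxna4 did so. No called member changed direction in any of the 15.

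**Figure D4:**
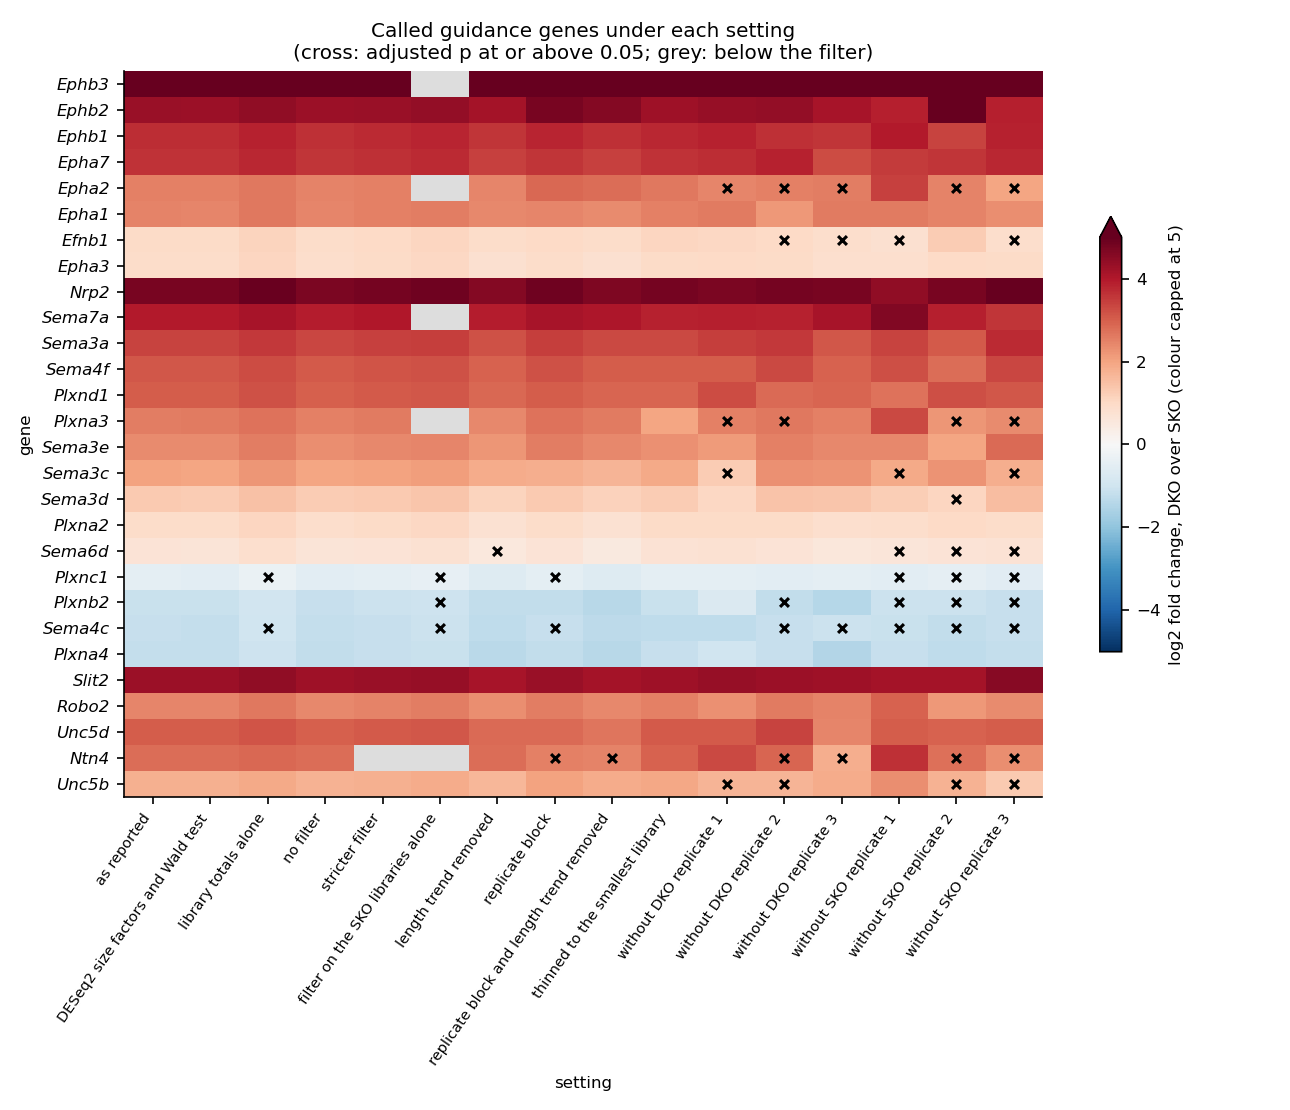
Log2 fold change, DKO over SKO, of each called member (vertical) under each alternative setting (horizontal), in colour, with crosses where the call was lost and grey where the gene was not tested. The 16 rises named above and Plxna4 carry no cross, and no colour changes from a rise to a fall.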

How the data were processed

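What the authors deposited is a single table: unnormalized read counts by Entrez identifier, plus gene lengths. Of its sample columns, 0 were left unused. The submitters' processing notes list the aligner STAR 2.5.0a along with GRCm38 and mm10 as builds. How reads were counted (program, annotation, strand, multiple alignments) was not given in the sources used here, so reads of overlapping and antisense genes cannot be told apart. RNA was amplified before library preparation, per the labels' protocols, so a read is not an independent molecule and intervals cover counting error only. Samples are described as re-analyses of earlier ones, per the labels, and were grouped by the labelled genotype.

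Entrez identifiers were matched to RefSeq on GRCm38 for symbols and coordinates, and 24387 of 24421 matched. The other 34 made up no more than 0.087% of any library. A floor of 3 counts corresponds to 0.113 to 0.193 CPM. Tests used R 4.3.3 and edgeR 4.0.16: filterByExpr (minimum count 10, minimum total 15), TMM scaling, and the two-sided quasi-likelihood test, glmQLFit and glmQLFTest, with Benjamini-Hochberg adjustment over all 14845 genes and a threshold of 0.05. SE was derived from the F statistic. CPM are on TMM-scaled library sizes and are given as mean ± SD over 3 mice. CPM per kb use the deposited lengths. The procedure was run on simulated counts with the same dispersion for every gene, as many rises as falls, and libraries that differed in depth only. That setting is simpler than these data, so it checks the code and not the calls.

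Values in every library are given for up to 8 called members of each system by smallest adjusted p and for its most abundant tested member per length in SKO. The other pathway genes named with values are up to 6 called higher and 6 called lower by smallest adjusted p, and members close to the threshold were named after their values were seen. Members and lists were chosen with earlier results of these data known. Alternatives were DESeq2 1.42.0, library totals, no filter, a stricter filter (30 and 45 counts), a filter on SKO alone, removal of the trend with gene length, thinning to the smallest library, the replicate number as a block, and leaving out each library. Promoter windows came from RefSeq (GRCm38.p6), 1 per gene, and for 51 of 59 members the 35 bases after the start were found in a GENCODE transcript of the gene.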

Additional observations from a re-analysis of the deposited data

How the results depend on the processing

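The 24 rises among the members gave 22 to 28 with the alternatives that kept all 6 libraries and 18 to 22 with 1 library left out, while the 4 falls were less stable. Members called lower were 2 with library totals alone, 1 with the filter on SKO alone, 2 with a replicate block, 9 with the replicate block and the length trend removed together, and 1 to 5 with a library left out. All genes called higher fell from 2567 to 1694 with the filter on SKO alone, which tests fewer genes. All genes called lower changed from 1100 to 596 with library totals and to 1845 with the replicate block and the length trend removed, and ranged from 434 to 1501 with a library left out. Other pathway genes called lower, 3 as reported, were 7 with DESeq2, 1 with the filter on SKO alone, 7 with the length trend removed, 9 with the replicate block and the length trend removed, and 0 to 8 with a library left out. The cause of these shifts was not tested. Rises made up 85.7% of member calls as reported, 93.1% with library totals and 73.5% with the block and length trend removed. For all genes that share was 70.0% as reported and 82.9% with library totals. Deviations of same-numbered DKO and SKO libraries correlated at 0.139, 0.0773 and 0.0479. Not every value was over 0.1, so the numbers were not taken to pair the mice, although each library correlated best with its own number, a hint from the data and not from the design. With the replicate block alone, 26 members were higher, and the calls of Ntn4, Sema4c and Plxnc1 did not pass (edgeR adjusted p = 0.0933, 0.0535 and 0.0515). With the block and the length trend removed, Ntn4 did not pass either (0.0862). Members near the floor of 3 counts in SKO, such as Plxna3 (10, 2 and 4 counts) and Epha2 (21, 9 and 1), are limited by depth there.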
